A study of Mus musculus with 40 samples.

Results

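The cocaine response of intact female mice was compared with that of intact male mice, gene by gene, in nucleus accumbens RNA. The measure was a difference of differences, in which the change from saline to cocaine in males was subtracted from the change from saline to cocaine in females. A positive value therefore stands for a response that lay higher in females than in males. Of 40 libraries, 1 per mouse, 19 entered the comparison. Of 22128 autosomal genes in the table, 14383 passed a filter on low values and were tested, and the other 7745 were not. A library titled male cocaine 69 was left out because its column code names the saline group. Its Xist level was 237 TPM, within the range of the intact females (80.6 to 308) and above that of the 9 males used (0.138 to 8.02).

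The mice were C57BL/6J, an inbred strain, and none of those compared had been operated on. After 3 days of handling they received saline or cocaine, the latter at a daily 20 mg/kg from day 2 through day 6 and at 10 mg/kg on days 1 and 7 of treatment. Punches of the left and right nucleus accumbens were collected after withdrawal, whose length is not given in the sources used here, nor is the age of the mice. The 4 groups were female saline (mice 64, 65, 66, 77 and 78), female cocaine (70, 71, 72, 79 and 80), male saline (61, 62, 63, 73 and 74) and male cocaine (67, 68, 75 and 76). Values per library are given in this order throughout. The remaining 20 libraries of the study came from ovariectomized females and entered only an alternative fit over all 8 groups.

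The nucleus accumbens is the ventral part of the striatum. Most of its neurons are inhibitory projection neurons that carry either the D1 or the D2 dopamine receptor, and cocaine raises dopamine around them by blocking its reuptake. The punched region borders the septum, the cortex and the ventricle wall, so a punch may hold some of their cells. In RNA from whole tissue, fewer cells of a type and less RNA per cell cannot be told apart.

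Some libraries stood apart from the rest before any comparison was made. Values are in TPM, so each library sums to 1000000 and a gene's value is its share of that total. The 74 genes of cytosolic ribosomal proteins took 24.4% of male cocaine 67, against 7.27% to 17.3% of the other 18 libraries. In male cocaine 67 the median tested gene stood at 3.21 on the scale log2(TPM + 0.5), against 3.81 to 4.60 in the others. Its median correlation with the other 18 libraries was 0.917, where the others had 0.941 to 0.975. Male saline 61 and female saline 64 leaned the same way, with ribosomal shares of 17.3% and 13.4%. The ribosomal share differed between the female and male responses by -1.90 percentage points with all 19 libraries and by 2.35 without male cocaine 67 (exact permutation test, two-sided, p = 0.693 and p = 0.465). Differences below are therefore given with all libraries and, beside that, without male cocaine 67. All 10 genes chosen to check the tissue (among them Ppp1r1b, Drd1a, Drd2, Penk, Tac1 and Adora2a) were above 0 in all 19 libraries. Their summed level was 5029 to 7149.9 TPM in female saline, 3895 to 5464 in female cocaine, 4180.1 to 7413 in male saline and 3923 to 7598 in male cocaine mice.

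**Figure D1:**
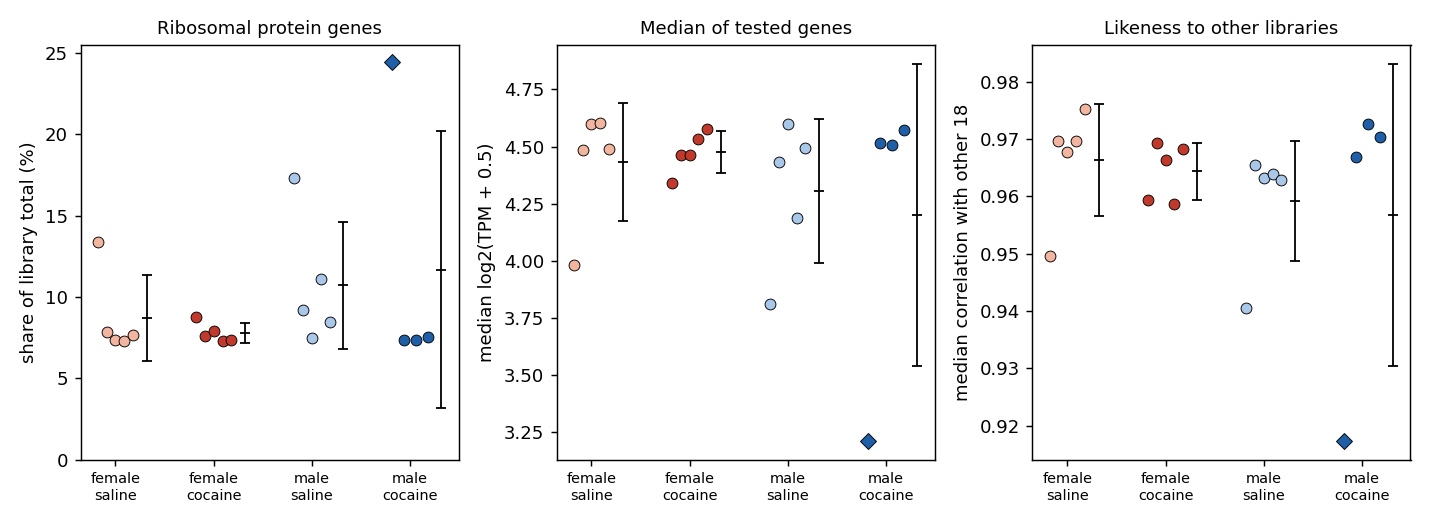
The share of each library taken by ribosomal protein genes (percent), the median of the tested genes (log2(TPM + 0.5)) and the median correlation with the other 18 libraries, by group. Points are libraries, the diamond is male cocaine 67 and bars are the group mean and SD. Male cocaine 67 lies at 24.4%, 3.21 and 0.917, outside the range of the other libraries in each panel.

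No autosomal gene passed the test of the difference. Limma called 0 of 14383 genes at an adjusted p under 0.05 (0%), and 171 genes (1.19%) had an unadjusted p under 0.05, of which 147 had a positive and 24 a negative difference. When no gene differs, a threshold of 0.05 gives a larger share than 1.19% by chance, so the 171 genes are no excess. The median of all tested autosomal genes was 0.11 and 69.7% were above 0. Without male cocaine 67 limma again called 0 genes, 315 (2.19%) had an unadjusted p under 0.05, and the median was -0.19 with 28.7% above 0. With the libraries centred on their median, 141 of the genes at an unadjusted p under 0.05 were positive and 135 negative. The sign of a gene with a small difference thus depends on 1 library and on the scaling, and gene lists are given below as a relative median, the members' median with the median of all tested autosomal genes subtracted. The smallest adjusted p was 1 with all 19 libraries and 0.0570 without male cocaine 67, for Gm1673.

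The responses within each sex gave few calls as well. In females 159 of 14383 genes (1.11%) reached an unadjusted p under 0.05 and limma called 0 (0%). In males 281 genes (1.95%) reached it and 0 (0%) were called by limma, and of the 281 genes 249 were lower with cocaine. Without male cocaine 67 the male response had 1 called gene (0.00695%), Gm1673, and 1169 (8.13%) with an unadjusted p under 0.05. In that fit 876 of the 1169 were higher with cocaine, as were 73.9% of all tested autosomal genes, so the balance of directions in males turned on this library. In the fit of all 19 libraries described above, nothing below passed a test over all genes, and the values are a description of these mice. Calls made in other settings are named as such.

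The 10 positive differences of smallest p, among genes averaging at least 5 TPM, were A230065H16Rik, Gpx3, Prr7, Zic2, Camk2n2, Ubtd1, Pnoc, Zic1, Macrod1 and Tuba1b. Their differences ran from 0.56 to 2.70 on the log2 scale, with limma unadjusted p from 0.00209 to 0.016, and all had an adjusted p of 1. In males all 10 were lower on average with cocaine, where 34.2% of all tested autosomal genes were higher. In females 9 were higher on average, as were 57.8% of all, and Macrod1 differed by -0.10 ± 0.22. All 10 kept their sign in each of the 35 other settings tried, which reuse these libraries or a part of them and do not test the sign anew. A fit over all 8 groups and a fit with male cocaine 69 added under its title also held libraries from outside the comparison. In 5 of the 10 genes, A230065H16Rik, Gpx3, Prr7, Ubtd1 and Macrod1, all male cocaine libraries lay below all male saline libraries. This held for 0.647% of all tested autosomal genes. The genes were ranked by p in these same libraries, so their directions and this separation are no further support. In all 10 the female groups overlapped.

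Several of these genes act at the synapse or in neurons. Prr7 (chr13:55464267-55473154) encodes a membrane protein of the postsynaptic density. It stood at 29.4, 38, 25.3, 22.8 and 33.7 TPM in female saline and 58.8, 36.6, 45.4, 21.1 and 44.9 in female cocaine mice. In males it stood at 35.7, 36.9, 35, 60.8 and 30.7 TPM with saline and 23, 15.7, 27 and 27.9 with cocaine. All 4 male cocaine libraries lay below all 5 male saline libraries, while in females 3 cocaine libraries lay above all saline libraries and mouse 79 lay below them. The difference was 1.16 ± 0.38 (SE, n = 19 libraries; 95% interval 0.37 to 1.94; limma adjusted p = 1), and 1.16 without male cocaine 67.

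Camk2n2 (chr16:20619215-20621287) encodes an inhibitor of the calcium-dependent kinase CaMKII, which is central to synaptic plasticity. Its female values were 116, 97.4, 60.2, 101 and 88.5 TPM with saline and 171, 147, 159, 85.8 and 135 with cocaine, and 4 of the 5 cocaine libraries exceeded all saline libraries. Its male values were 109, 114, 177, 109.6 and 79.1 TPM with saline and 60.8, 102, 95 and 92.1 with cocaine, and the groups overlapped. The difference was 0.99 ± 0.34 (limma adjusted p = 1) and 0.83 without male cocaine 67. It was 1.57 among animals 61 to 72 and 0.18 among animals 73 to 80.

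Pnoc (chr14:65400673-65425472), the precursor of the opioid-like peptide nociceptin, stood at 8.43, 3.77, 14.4, 6.46 and 7.13 TPM in male saline and 1.88, 4.11, 4.9 and 2.21 in male cocaine mice. Females had 6.86, 8.9, 6.34, 12.4 and 6.08 TPM with saline and 6.15, 7.27, 8.82, 8.6 and 13 with cocaine. Male cocaine mice held the 2 lowest values of all 19 libraries, and both pairs of groups overlapped. The difference was 1.26 ± 0.46 (limma adjusted p = 1) and 1.06 without male cocaine 67.

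Tuba1b (chr15:98931425-98934565), an alpha-tubulin of the microtubules, was the most abundant of the 10. It stood at 349.5, 328, 261, 317 and 301 TPM in female saline and 436, 388, 373, 322 and 343 in female cocaine mice, and at 431, 351, 449, 324 and 336 in male saline and 305, 347, 297 and 272 in male cocaine mice. The 2 sexes leaned in opposite directions within overlapping groups (0.26 ± 0.15 in females, -0.30 ± 0.16 in males), with a difference of 0.56 ± 0.21 and 0.56 without male cocaine 67. Alpha-tubulin genes are near-identical in their coding sequence, so reads may have been shared among them.

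Other genes of this group serve metabolism and protein turnover. Gpx3 (chr11:54902453-54910377) encodes a secreted glutathione peroxidase, which removes peroxides. Female mice had 48.7, 39.5, 13.2, 40.8 and 18.3 TPM with saline and 60.7, 18.4, 33.5, 34.9 and 52.2 with cocaine. Male mice had 31, 16.6, 40.7, 25.5 and 27.1 TPM with saline and 9.03, 9.22, 13 and 11 with cocaine. All 4 male cocaine libraries lay below every other library of the 19, and the female groups overlapped. The difference was 1.70 ± 0.51 (95% interval 0.63 to 2.76; limma adjusted p = 1), made of 0.36 ± 0.35 in females and -1.33 ± 0.37 in males. It was 1.63 without male cocaine 67 and ran from 1.42 to 1.94 as each library was left out in turn.

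Macrod1 (chr19:7056810-7198057), a mitochondrial enzyme that removes ADP-ribose from proteins, stood at 16.3, 13.2, 18.1, 13.6 and 18.6 TPM in male saline and 8.18, 9.31, 9.4 and 5.46 in male cocaine mice. Its female values were 13.6, 14.7, 12, 10.7 and 14.6 with saline and 19, 13.7, 11.3, 8.52 and 10.1 with cocaine. The male groups were separate and the female groups overlapped, with a difference of 0.85 ± 0.32 and 0.86 without male cocaine 67. Flrt1 lies within Macrod1 on the opposite strand, and whether the counting used strand is not given in the sources used here.

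Ubtd1 (chr19:41981763-42034643), a ubiquitin-domain protein, had male values of 11.7, 13.4, 13.5, 16.2 and 13.5 TPM with saline and 10, 9.31, 10.8 and 7.75 with cocaine. Females had 14.7, 11.1, 10.9, 9.89 and 13.8 with saline and 15.2, 12.7, 15.3, 11.7 and 16 with cocaine. All male cocaine values lay below all male saline values by a small margin, and the female groups overlapped. The difference was 0.74 ± 0.26 and 0.77 without male cocaine 67.

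A230065H16Rik (chr12:111406809-111412090, now named Lbhd2) had the smallest p. Its male values were 75.9, 14.3, 17.2, 10.1 and 20.1 TPM with saline and 7.94, 2.31, 3.92 and 4.88 with cocaine, with no overlap. Its female values were 19.7, 15.7, 3.46, 8.53 and 4.61 with saline and 12.4, 11, 30.1, 5.23 and 16.1 with cocaine. The difference was 2.70 ± 0.77 (95% interval 1.10 to 4.29; limma adjusted p = 1) and 2.96 without male cocaine 67. Male saline 61 stood far above the other male saline libraries, and without it the difference was 2.24.

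**Figure D2:**
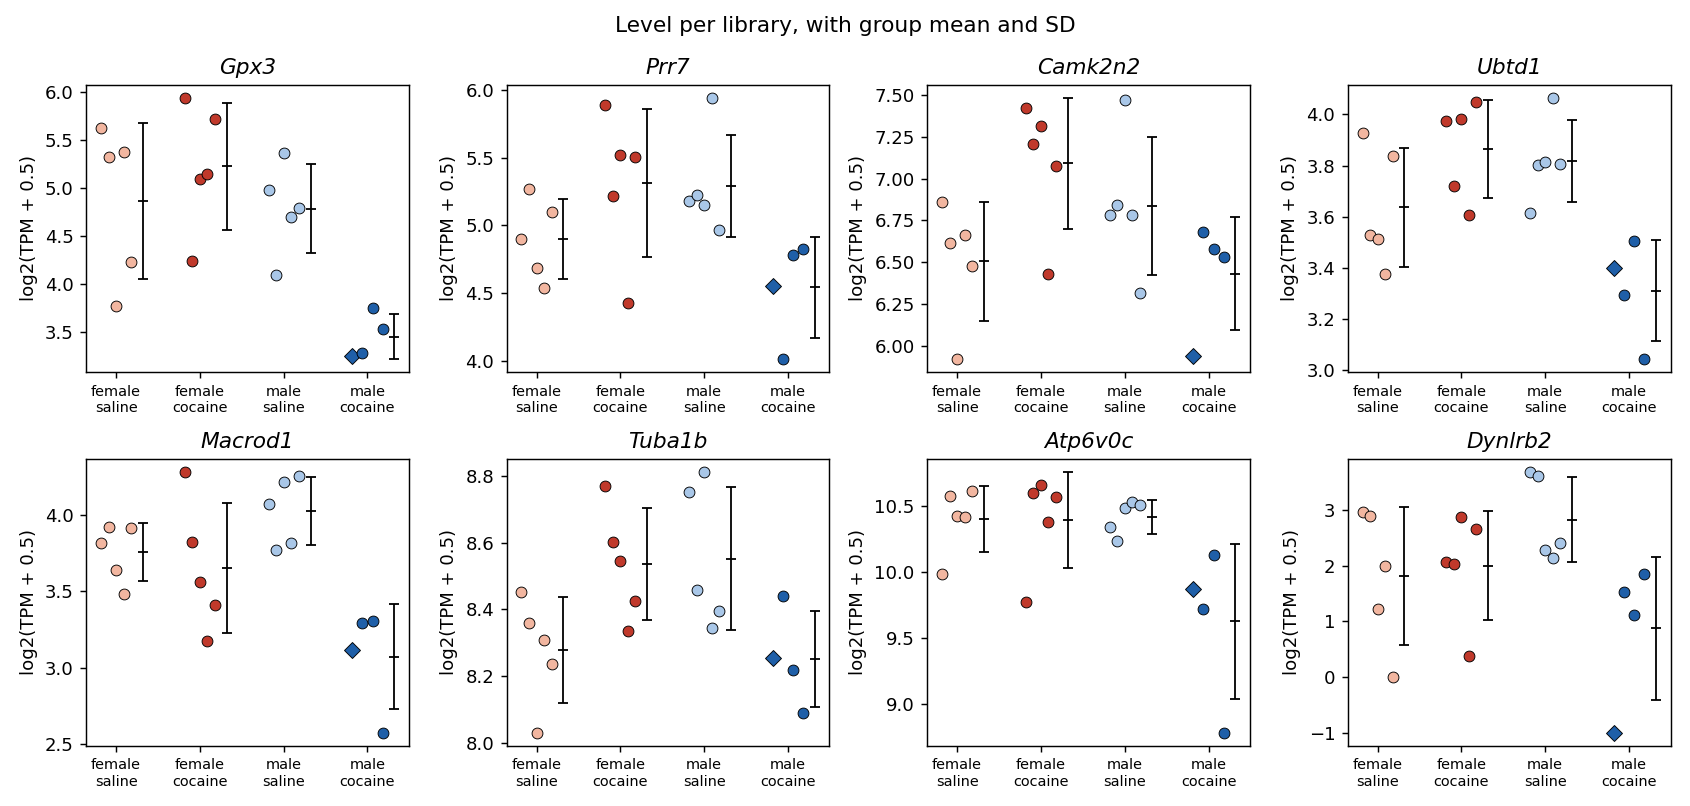
Level of 8 genes in each library as log2(TPM + 0.5), by group. Points are libraries, the diamond is male cocaine 67 and bars are the group mean and SD. In Gpx3, Prr7, Ubtd1, Macrod1, Atp6v0c and Dynlrb2 all male cocaine points lie below all male saline points, while the female groups overlap in all 8 panels. All 8 genes were named for their small p in these same libraries.

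Zic1 and Zic2 encode zinc-finger transcription factors of the septum and neighbouring forebrain regions. Zic2 (chr14:122475435-122479852) stood at 2.64, 12.5, 8.37, 7.73 and 8.11 TPM in female saline and 11.4, 12.9, 18.3, 6.55 and 11.3 in female cocaine mice. In males it stood at 17.3, 9.16, 11.8, 8.04 and 26.4 with saline and 1.9, 7.31, 8.0 and 9.11 with cocaine. The value of male cocaine 67 was the lowest of all, and the groups overlapped in both sexes. The difference was 1.79 ± 0.60 with all libraries and 1.33 without male cocaine 67. Zic1 (chr9:91358058-91365810), whose neighbour Zic4 overlaps it on the opposite strand, differed by 1.56 ± 0.58 and by 1.09 without that library. Zic4 differed by 1.14 ± 0.48 and by 0.86.

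Both genes belong to a list of 10 markers of septal and subpallial neurons, of which 10 were tested. All 10 lay above the median of all genes, 2 had an unadjusted p under 0.05 (against 1.19% of all genes), and 0 were called. These 2 are Zic1 and Zic2, already named for their small p. The lists were chosen with earlier results of these data known, so such counts are no independent support. The relative median was 0.44, and 0.48 without male cocaine 67, and it kept its sign in all settings tried. A list score, the mean log2 level of the members above the library median, was -1.12 ± 0.24 in female saline and -0.86 ± 0.23 in female cocaine mice (SD, n = 5 each). It was -0.81 ± 0.31 in male saline (n = 5) and -1.27 ± 0.18 in male cocaine mice (n = 4). The summed level of the markers was 91.9 to 163, 135 to 201, 100.1 to 191 and 39.1 to 138 TPM in these groups, no member was at 0 in all 19 libraries, and the part of the punched region in these values was not tested.

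Ependymal cells line the ventricles and carry motile cilia that move the cerebrospinal fluid. The genes of these cilia are switched on by FOXJ1 and by RFX factors, which bind a palindromic motif, the X-box. Of 12 ependymal and ciliary markers 11 were tested and Dnahc11 was not. Of the 11, 10 lay above the median of all genes, 4 had an unadjusted p under 0.05, all positive (against 1.19% of all genes), and 0 were called. This list too was chosen with earlier results of these data known, so the counts are no independent support. The relative median was 0.79, and 1.04 without male cocaine 67, with the same sign in all settings tried. It was -0.10 for the female and -1.04 for the male response. The list score was -2.04 ± 0.42 in female saline and -2.24 ± 0.75 in female cocaine mice (SD). In males it was -1.09 ± 0.80 with saline and -2.11 ± 0.63 with cocaine. Male saline mice thus had the highest mean, and the male cocaine mean lay between the female means.

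Of the 8 tested markers with a promoter in the RefSeq table (GRCm38.p6), 4 held the X-box half-site GTTGCC, on either strand, within 250 bases before a listed start. Among all autosomal genes listed there, 11.5% had it, and 10.1% of all windows. Stretches around the half-site are shown for 3 of these markers, to show where the half-site lies. They lie at chr8:116504854-116504973 (plus strand), chr11:72361883-72362002 (minus strand) and chr9:44240465-44240584 (plus strand), in no annotated exon, and are written 5′ to 3′ on the strand of the gene, with capitals for GTTGCC or its reverse complement.
Dynlrb2: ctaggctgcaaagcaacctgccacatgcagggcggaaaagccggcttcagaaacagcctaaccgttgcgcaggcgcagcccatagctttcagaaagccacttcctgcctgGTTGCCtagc
Tekt1: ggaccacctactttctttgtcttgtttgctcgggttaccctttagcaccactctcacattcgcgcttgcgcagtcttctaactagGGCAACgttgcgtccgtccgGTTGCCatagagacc
Ccdc153: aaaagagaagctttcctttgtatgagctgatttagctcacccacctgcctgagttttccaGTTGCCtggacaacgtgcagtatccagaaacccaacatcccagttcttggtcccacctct
The match is a description of these letters and shows no binding.

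Dynlrb2, a light chain of the dynein motor and the first of these sequences, stood at 12.4, 11.8, 4.35, 3.88 and 4.77 TPM in male saline and 0, 2.37, 1.67 and 3.11 in male cocaine mice. Females had 7.26, 6.89, 1.83, 3.47 and 0.499 with saline and 3.66, 3.59, 6.84, 0.804 and 5.78 with cocaine. The male groups were separate, with cocaine below saline as in 0.647% of all tested autosomal genes, and male cocaine 67 was listed at 0. The female groups spread over the same range. Like Foxj1 below, Dynlrb2 was named for its small p in these same libraries, so this separation is no further support. The difference was 2.14 ± 0.87 (95% interval 0.32 to 3.95; limma unadjusted p = 0.0231, adjusted p = 1) and 1.51 without male cocaine 67.

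Foxj1 (chr11:116330704-116335399), the regulator of motile cilia, stood at 13.1, 15.9, 12.2, 5.2 and 11.3 TPM in male saline and 1.72, 6.45, 4.7 and 5.51 in male cocaine mice. Females had 6.32, 10.3, 6.35, 7.28 and 5.71 with saline and 5.52, 6.46, 12.5, 3.91 and 7.52 with cocaine. In males 4 of 5 saline libraries exceeded all cocaine libraries, and mouse 73 did not. The difference was 1.21 ± 0.49 with all libraries and 0.85 without male cocaine 67.

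Rsph1, a protein of the radial spokes inside cilia, differed by 0.80 ± 0.36 (0.68 without male cocaine 67) and 1700009P17Rik (now Cfap126, a cilium-associated protein) by 1.24 ± 0.56 (1.24). Tekt1, a filament protein of cilia, differed by 0.81 ± 0.41 (0.64), Ccdc153 by 0.53 ± 0.94 (0.27) and Tmem212 by 1.44 ± 1.03 (1.25). The summed level of the markers was 51.8 to 111 TPM in female saline, 45.8 to 145 in female cocaine, 75.2 to 229.8 in male saline and 57.2 to 81.2 in male cocaine mice. The highest sum was that of a male saline mouse, and no marker was at 0 in all 19 libraries. The part of tissue from the ventricle wall in these values was not tested.

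Choroid plexus, which lies in the ventricles and secretes cerebrospinal fluid, was marked by 11 genes, of which 7 were tested and 4 lay above the median of all genes. Their relative median was 0.96, 1.03 without male cocaine 67, and of the other sign when only genes reaching 5 TPM were tested. Kcnj13, a potassium channel (1.44 ± 0.66), and Prlr, the prolactin receptor (1.52 ± 0.72), had an unadjusted p under 0.05, and without male cocaine 67 they differed by 1.33 and 1.34 with neither under 0.05. Ttr, transthyretin, the most typical product of this tissue, had the other sign at -0.87 ± 1.13 (-0.27 without that library). The summed level was 33.4 to 74.6, 24.5 to 64.4, 23.2 to 49.6 and 13.3 to 33.3 TPM in female saline, female cocaine, male saline and male cocaine mice, and its part in the ependymal values was not tested.

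**Figure D3:**
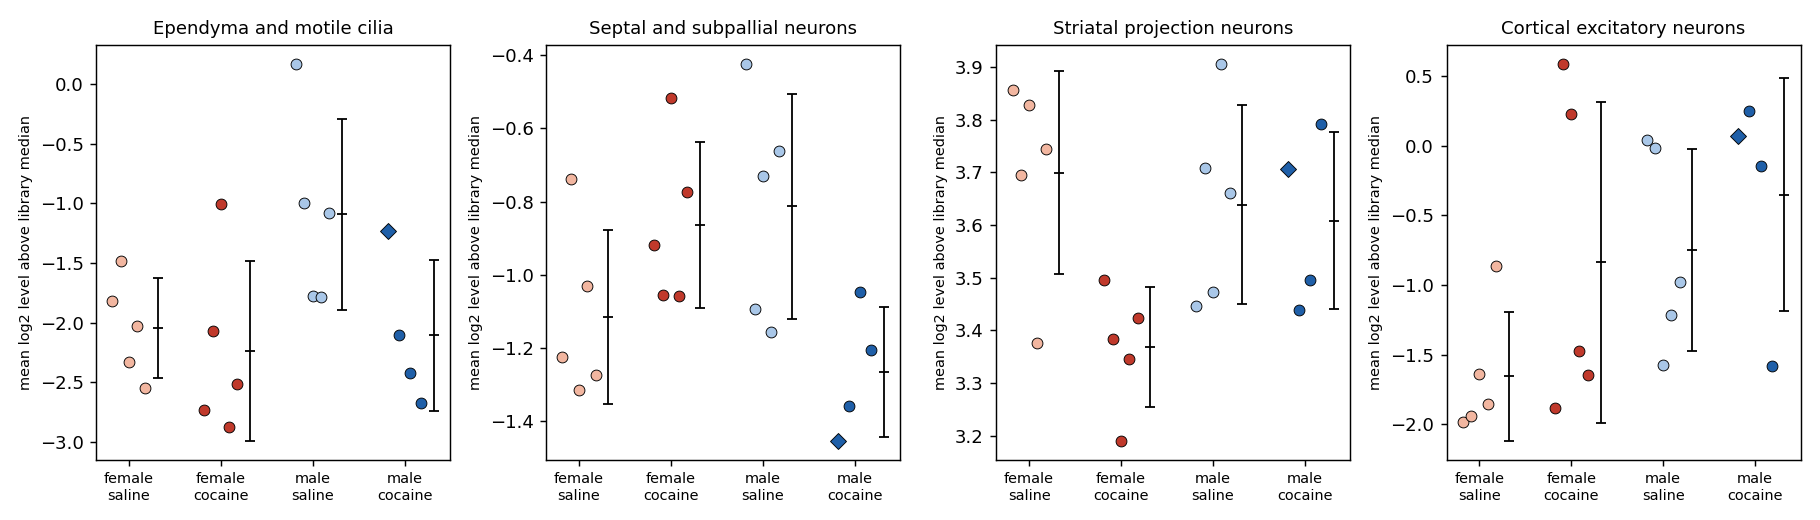
Mean log2 level of the tested members of 4 marker lists above the library's median, by group. Points are libraries, the diamond is male cocaine 67 and bars are the group mean and SD. The ependymal score averaged -2.04 ± 0.42 in female saline and -2.24 ± 0.75 in female cocaine mice. It averaged -1.09 ± 0.80 in male saline and -2.11 ± 0.63 in male cocaine mice. The striatal score averaged 3.70 ± 0.19 in female saline and 3.37 ± 0.11 in female cocaine mice.

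Markers of striatal projection neurons lay on the other side. Of 25 tested members 24 lay below the median of all genes, and 0 had an unadjusted p under 0.05. The relative median was -0.27, and -0.30 without male cocaine 67. It was -0.34 for the female and -0.06 for the male response. The sign held in all settings tried, but among animals 73 to 80 alone the value was -0.01, against -0.42 among animals 61 to 72.

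Among the members of this list, Tac1, the precursor of substance P and typical of D1 neurons, stood at 669, 486, 778, 484 and 658 TPM in female saline and 488, 477, 537, 597 and 579 in female cocaine mice. Males had 673, 519.9, 496, 840.0 and 746 with saline and 778, 651, 759 and 739.9 with cocaine. The groups overlapped in both sexes, and the difference was -0.37 ± 0.25 (-0.34 without male cocaine 67). Penk, the enkephalin precursor of D2 neurons, differed by -0.25 ± 0.31, Foxp1, a striatal transcription factor, by -0.37 ± 0.42 and Pde10a, a striatal phosphodiesterase, by -0.39 ± 0.49. Without male cocaine 67 these became -0.42, -0.69 and -0.81, where the median of all genes was -0.19.

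Markers of cortical excitatory neurons moved with this pattern in the opposite sense. Of 16 tested members 13 lay above the median of all genes and 0 had an unadjusted p under 0.05, with a relative median of 0.45 (0.59 without male cocaine 67). Among animals 73 to 80 it was -0.42, the other sign. Nrn1, a neuritin of cortical neurons, ranged from 9.27 to 23.9 TPM in female saline and from 20.3 to 171 in female cocaine mice, with a difference of 1.05 ± 0.79 (1.00 without male cocaine 67). The summed level was 187 to 512, 268 to 1485, 297 to 949 and 335 to 1344 TPM in female saline, female cocaine, male saline and male cocaine mice. No member was at 0 in all 19 libraries, and the part of cortical tissue in the striatal values was not tested.

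Markers of hypothalamic and thalamic neurons, 10 tested of 14, had a relative median of 0.68 (0.92 without male cocaine 67), with 9 above the median of all genes, and of the other sign (-0.16) among animals 61 to 72. Prkcd, a protein kinase C abundant in thalamus, stood at 20.2, 12, 12.2, 10.6 and 23.8 TPM in male saline and 1.8, 8.53, 10.2 and 11.7 in male cocaine mice. Females had 6.62, 21, 10.9, 16 and 14.8 with saline and 11.8, 19.2, 27.5, 9.01 and 13 with cocaine. Its difference was 1.30 ± 0.60 with all libraries and 0.75 without male cocaine 67, which held the lowest of the 19 values. Cholinergic markers, 9 of 9 tested, had a relative median of 0.36 with and without that library, with array weights reversing the sign, and those of GABA interneurons -0.08 (0.08 without male cocaine 67).

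**Figure D4:**
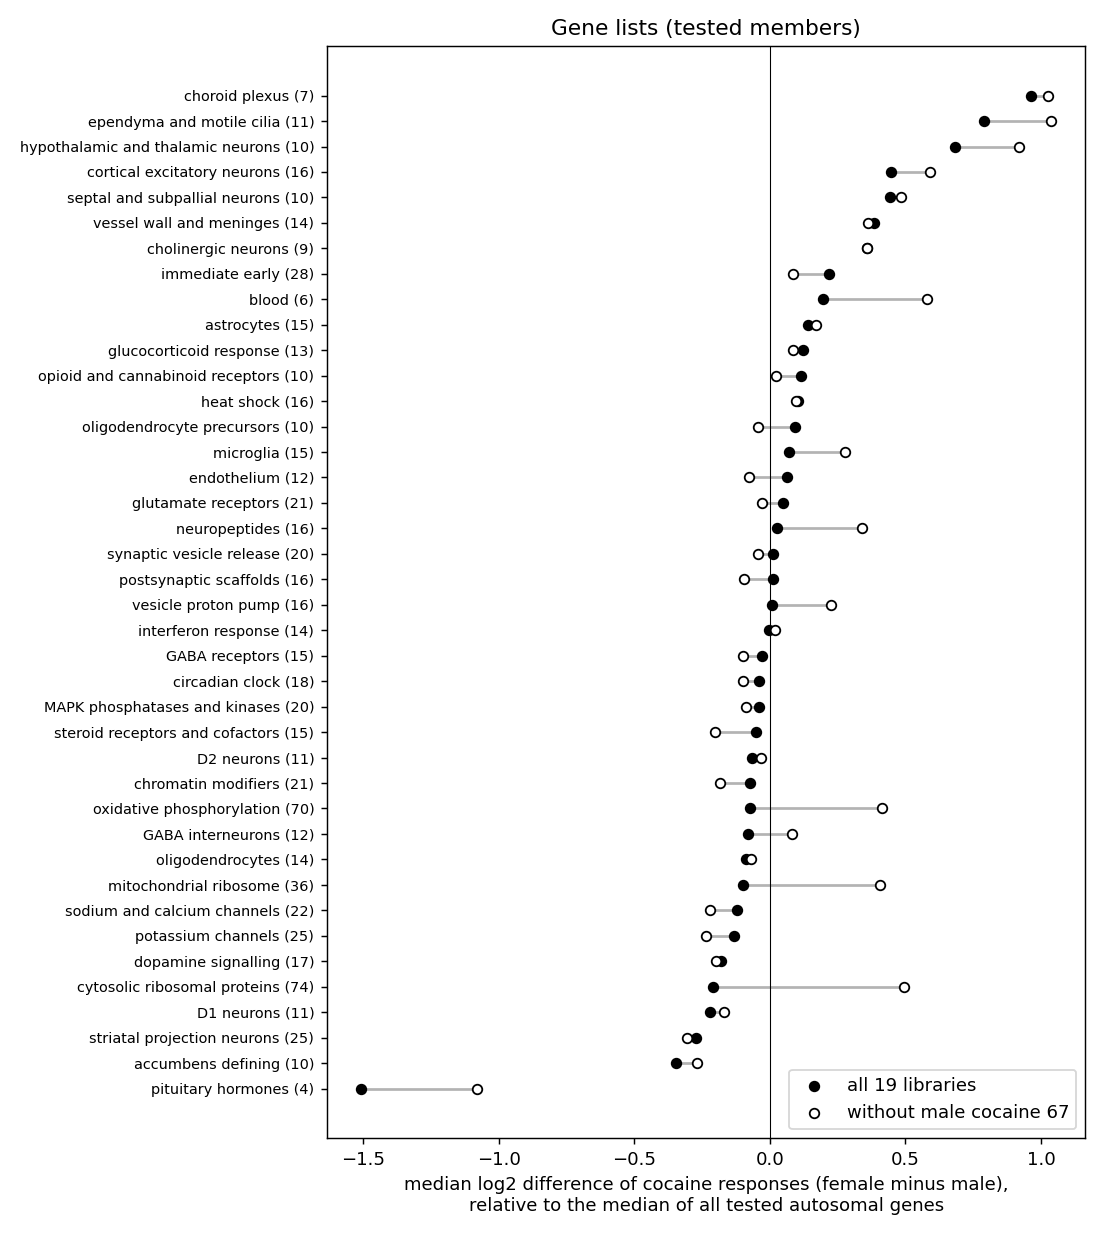
Median log2 difference of the cocaine responses (female minus male) for each of 40 gene lists, relative to the median of all tested autosomal genes. Filled points use all 19 libraries and open points leave out male cocaine 67; the number of tested members follows each name. The lists of cytosolic ribosomal proteins, mitochondrial ribosome and oxidative phosphorylation move from -0.21, -0.10 and -0.07 to 0.49, 0.41 and 0.41.

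A set of 16 genes long studied in cocaine and accumbens biology was read whatever their p, and 15 passed the filter. Slc6a3, the dopamine transporter that cocaine blocks, is made in midbrain neurons and stood between 0 and 1.23 TPM, and was not tested. None of the 15 had an unadjusted p under 0.05, against 1.19% of all genes. Their differences ran from -0.53 for Cartpt to 0.68 for Bdnf.

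Among the peptides, Cartpt, the precursor of the cocaine- and amphetamine-regulated transcript peptides, stood at 148, 132, 158, 103 and 181 TPM in female saline and 121, 126, 145, 134 and 151 in female cocaine mice. Males had 133, 87.6, 99, 164 and 166 with saline and 272, 132, 145 and 170.2 with cocaine. The highest value was that of male cocaine 67, and the groups overlapped. The difference was -0.53 ± 0.32 (95% interval -1.19 to 0.14; limma unadjusted p = 0.114, adjusted p = 1) and -0.31 without male cocaine 67. Pdyn, the dynorphin precursor, differed by -0.17 ± 0.42 (95% interval -1.05 to 0.72) and by -0.60 without that library.

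Of the dopamine genes, Drd1a, the D1 receptor (Drd1 in current naming), stood at 142, 162, 239.6, 159 and 187 TPM in female saline and 126, 136, 112, 161 and 156 in female cocaine mice. Males had 85.6, 161, 162, 152 and 184 with saline and 68.2, 157, 152 and 203 with cocaine, where mice 61 and 67 were low. The difference was -0.26 ± 0.37 (95% interval -1.03 to 0.51) and -0.59 without male cocaine 67. Drd2, the D2 receptor, differed by 0.05 ± 0.47 (-0.94 to 1.03), and by -0.38 without male cocaine 67, the other sign. Th, the enzyme that makes dopamine, differed by 0.06 ± 0.48 (-0.94 to 1.07; -0.05 without that library). Ppp1r1b, the gene of DARPP-32, a phosphoprotein that dopamine controls, differed by -0.17 ± 0.29 (-0.78 to 0.44; -0.19 without it). Over the 17 tested genes of dopamine signalling the relative median was -0.18 (-0.20 without it), 0 had an unadjusted p under 0.05, and the sign changed among animals 73 to 80.

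Of the genes switched on by activity, Fos stood at 9.24, 13.2, 22.1, 8.0 and 12.2 TPM in female saline and 5.29, 30.6, 36.1, 16.7 and 25.4 in female cocaine mice. Males had 13.9, 33.1, 35.8, 7.01 and 18.1 with saline and 8.58, 20.9, 35.7 and 34.1 with cocaine, so that all 4 groups covered a common range. The difference was 0.41 ± 0.73 (95% interval -1.10 to 1.92) and -0.02 without male cocaine 67. Fosb, whose stable product accumulates with repeated cocaine, differed by -0.05 ± 0.61 (-1.32 to 1.23; -0.41 without that library), and Arc, a synaptic plasticity gene, by 0.37 ± 0.64 (-0.96 to 1.70; -0.15 without that library). Over 28 tested immediate-early genes 17 lay above the median of all genes, the relative median was 0.22 (0.08 without male cocaine 67), and 0 had an unadjusted p under 0.05. The sign changed among animals 73 to 80, and also without female cocaine 72 alone, at -0.02.

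Bdnf, a neuronal growth factor that has been studied in cocaine withdrawal, stood at 0.518, 0.977, 1.27, 1.51 and 2.8 TPM in female saline and 1.5, 9.26, 10.1, 3.13 and 1.85 in female cocaine mice. Males had 3.11, 4.13, 1.83, 2.1 and 1.54 with saline and 2.46, 17.3, 5.95 and 0.768 with cocaine. Mice 71, 72 and 68 stood above the rest in the cocaine groups of both sexes. The difference was 0.68 ± 0.83 (95% interval -1.05 to 2.41) and 0.47 without male cocaine 67. Esr1, the estrogen receptor alpha, differed by 0.00 ± 0.55 (-1.14 to 1.15), Homer1, a postsynaptic scaffold, by -0.18 ± 0.45 (-1.12 to 0.75) and Per1, a clock gene, by -0.13 ± 0.44 (-1.05 to 0.79). Without male cocaine 67 these 3 differed by -0.40, -0.58 and -0.37. All of the intervals given hold 0 and extend to both sides of it, and they do not show that the responses were alike.

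**Figure D5:**
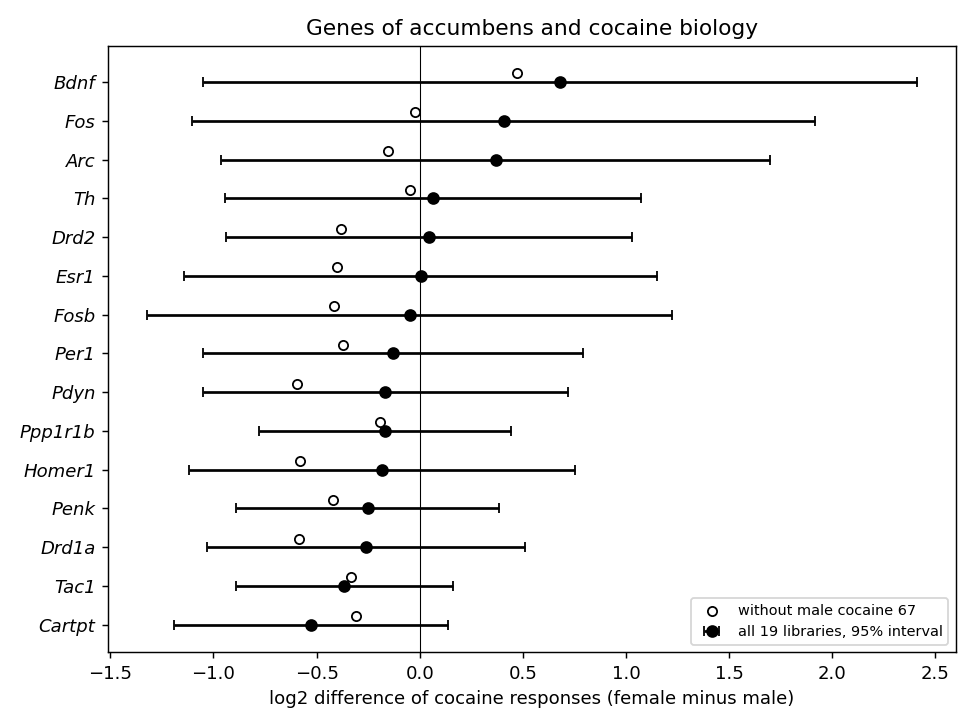
Log2 difference of the cocaine responses (female minus male) for 15 genes of accumbens and cocaine biology. Filled points with bars are the estimates from all 19 libraries with their 95% intervals, and open points leave out male cocaine 67. All 15 intervals hold 0, from Cartpt at -0.53 to Bdnf at 0.68.

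The 10 negative differences of smallest p were Snora65, Snhg1, 1700047M11Rik, Snora15, Prl, Snord22, Rps19-ps3, Pnp2, Nudt7 and Tmem38b, with limma unadjusted p from 0.0201 to 0.0751 and adjusted p of 1. All 10 kept their sign in each of the 35 other settings, which reuse these libraries or a part of them, some with libraries from outside the comparison added. These genes were ranked by p in the same libraries, so their sign and any separation of groups given below are no further support. Short nucleolar RNAs, which guide chemical changes of ribosomal RNA, and the host transcript Snhg1 made up 4 of the 10. Each short RNA lies inside its host gene on the same strand, so reads of host and short RNA may not have been told apart, and their values are uncertain.

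Snora65 (chr2:32963291-32963420, 130 bases, within Rpl12) was listed at 0 in all 10 saline libraries. It stood at 39.3, 25.1, 68.9 and 58.8 TPM in male cocaine and 0, 0, 21.4, 84.8 and 0 in female cocaine mice. All 4 male and 2 of the 5 female cocaine libraries thus had a value. It passed the filter on low values only through these cocaine libraries, so its separation from saline and its p are no support for a difference, and no fold is given against groups at 0. The host gene Rpl12 differed by -0.22 ± 0.48, and by 0.29 without male cocaine 67.

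Snora15 (chr5:129794546-129794676, 131 bases, within Cct6a) stood at 0, 0, 0, 14.5 and 0 TPM in male saline and 93.3, 41.6, 17.6 and 118 in male cocaine mice, with no overlap, as for 0.0348% of all tested autosomal genes. Females had 265, 68.1, 0, 0 and 53.4 with saline and 0, 35.4, 69.5, 0 and 95.1 with cocaine, with zeros in both groups. Snord22 (chr19:8725866-8725991, 126 bases, within Snhg1) stood at 525, 65.3, 121, 71.7 and 115 TPM in female saline and 83.1, 16.4, 63.9, 128 and 0 in female cocaine mice, and at 229.6, 0, 0, 90.4 and 239.8 and 738, 164, 70.5 and 87 in males. Snhg1 itself differed by -0.61 ± 0.27 (-0.46 without male cocaine 67), with female means of 56.8 ± 12.5 TPM with saline and 44.3 ± 6.09 with cocaine (SD, n = 5 each).

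A microRNA gene behaved like Snora65 and is described after its values were seen. Mir341 (chr12:109611500-109611595), which lies in an imprinted cluster of microRNAs, was listed at 0 in all saline libraries of both sexes. It stood at 0, 45.2, 131 and 211 TPM in male cocaine and 0, 140.1, 0, 0 and 0 in female cocaine mice, so 3 of 4 and 1 of 5 libraries had a value. It passed the filter only through these 4 cocaine libraries, so its values are given with no test. The table has a single entry of 96 bases for the hairpin and does not tell its arms apart. Both mature sequences from RefSeq (GRCm38.p6) are shown to identify it, with the seed, bases 2 to 8, in capitals, and the arms do not share a seed.
mmu-miR-341-5p: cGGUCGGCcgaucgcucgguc
mmu-miR-341-3p: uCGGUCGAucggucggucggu

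Among protein-coding genes of negative difference, Pnp2 (chr14:50955992-50964749), a purine nucleoside phosphorylase, stood at 7.57, 9.29, 7.72, 6.74 and 7.96 TPM in female saline and 2.84, 6.56, 6.08, 6.07 and 6.41 in female cocaine mice. Males had 9.95, 7.18, 4.39, 9.85 and 5.11 with saline and 6.69, 8.47, 7.55 and 10.8 with cocaine. All female cocaine values lay below all female saline values, as in 0.153% of all tested autosomal genes, and the male groups overlapped, with a difference of -0.73 ± 0.37 (-0.83 without male cocaine 67). Its neighbour Pnp is a close copy that overlaps it, so reads may have been shared. Nudt7, a peroxisomal enzyme that degrades coenzyme A, differed by -0.58 ± 0.30 (-0.47), and Tmem38b, a potassium-permeable channel of the endoplasmic reticulum, by -0.58 ± 0.31 (-0.31), where male cocaine 67 was the highest library at 32.1 TPM. Rps19-ps3, a pseudogene copy of a ribosomal protein gene, differed by -1.17 ± 0.58 (-1.39), and 1700047M11Rik by -0.62 ± 0.28 (-0.69).

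Prl, prolactin, is a hormone of the pituitary and not of the accumbens. It stood at 0, 13.9, 23.1, 37.1 and 6.22 TPM in female saline and 0, 0.181, 1.26, 2.93 and 24.7 in female cocaine mice, and at 2.03, 0, 0, 0.0854 and 0 and 2.64, 1.99, 0.115 and 1.18 in males. Values near 0 and high values occurred within both female groups. The difference was -3.18 ± 1.54 (-2.88 without male cocaine 67). Tshb, the thyrotropin beta chain, had an unadjusted p under 0.05 at values from 0 to 1.52 TPM. It passed the filter on low values only through female saline 66, 77 and 78 and female cocaine 72 (1.08, 1.52, 1.08 and 1.04 TPM). The p of Tshb is therefore no support for a difference. Of 7 pituitary hormone genes, Prl and Tshb among them, 4 were tested, with a relative median of -1.51 (-1.08). The summed level was 3.8 to 65.4, 2.43 to 58.8, 2.57 to 39.9 and 1.79 to 14.8 TPM in female saline, female cocaine, male saline and male cocaine mice, and the source of these transcripts was not tested.

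The genes of protein synthesis and respiration depended on male cocaine 67. With all 19 libraries 13 of 74 cytosolic ribosomal protein genes lay above the median of all genes, and without male cocaine 67 it was 73 of 74. The relative median went from -0.21 to 0.49. For 36 genes of the mitochondrial ribosome it went from -0.10 to 0.41, and for 70 genes of oxidative phosphorylation from -0.07 to 0.41. Without that library the male response of the ribosomal proteins had a relative median of -0.63, against 0.07 with it, and the female response was -0.12 in both. Beside these values, the ribosomal share of the other male cocaine libraries was 7.33% to 7.53%, and that of male saline mice 7.48% to 17.3%. The part of sample quality in this was not tested.

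Gm1673 (chr5:33983433-33985013), a small protein-coding gene described after its values were seen, showed the same dependence. It stood at 95, 84.8, 67.6, 107 and 86.9 TPM in male saline and 193, 34.1, 38.4 and 39.7 in male cocaine mice. Females had 63.9, 76.6, 64.7, 43.7 and 56.5 with saline and 73.4, 78.8, 101, 64.3 and 67.8 with cocaine. The highest of all values was that of male cocaine 67, and the other 3 male cocaine libraries were the lowest of all. The difference was 0.96 ± 0.49 (limma adjusted p = 1) and 1.55 without male cocaine 67 (adjusted p = 0.0570). The male response alone was then called, at -1.21 (adjusted p = 0.0356).

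Atp6v0c (chr17:24163866-24169702), the membrane subunit through which the proton pump of vesicles and lysosomes moves protons, kept its difference without that library. It stood at 1297, 1204, 1435, 1485 and 1456 TPM in male saline and 935, 845, 1122 and 439 in male cocaine mice. All male cocaine values lay below all male saline values, as in 0.647% of all tested autosomal genes. Atp6v0c was named for its small p in these same libraries, so this separation is no further support. Females had 1012, 1531, 1376, 1366 and 1568 with saline and 875, 1554, 1620.0, 1337 and 1523 with cocaine, over a common range. The difference was 0.79 ± 0.32 (95% interval 0.12 to 1.46; limma unadjusted p = 0.0228, adjusted p = 1) and 0.87 without male cocaine 67. The 16 tested genes of the pump had a relative median of 0.01 with 9 above the median of all genes, and of 0.22 with 13 above without male cocaine 67, and Atp6v0c was the 1 with an unadjusted p under 0.05.

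Markers of other cells in the tissue were read beside these results. Astrocytes had a relative median of 0.14 (0.17 without male cocaine 67), with 12 of 15 above the median of all genes, and the sign held in all settings. For cells of vessel wall and meninges the relative median was 0.39 (0.36), with 12 of 14 above and the other sign with array weights. Oligodendrocytes, their precursors, microglia and endothelium had -0.09 (-0.07), 0.09 (-0.04), 0.07 (0.28) and 0.06 (-0.08), each with a setting of the other sign. In none of these 6 lists did a member have an unadjusted p under 0.05. Blood markers, 6 tested of 12, had 0.20 (0.58), with -0.86 among animals 61 to 72 and 1.22 among animals 73 to 80. The sign also turned without male cocaine 68 and without male cocaine 75, the lowest value being -0.05. S100a8, a neutrophil protein, differed by -2.41 ± 1.03 (-2.31) at values from 0 to 7.03 TPM.

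Of all 40 lists only 7 (the accumbens check list, striatal projection neurons, D1 neurons, septal and subpallial neurons, ependyma, astrocytes and pituitary hormones) had the same sign in all 35 other settings. The relative medians of the remaining lists follow, each with the value without male cocaine 67 in parentheses. They were 0.05 (-0.03) for glutamate receptors, 0.01 (-0.09) for postsynaptic scaffolds, -0.03 (-0.10) for GABA receptors and transporters, and 0.01 (-0.04) for synaptic vesicle release. Those of channels were -0.13 (-0.24) for potassium channels and -0.12 (-0.22) for sodium and calcium channels. Opioid and cannabinoid receptors had 0.11 (0.02), neuropeptides 0.03 (0.34), and steroid receptors and their cofactors -0.05 (-0.20). D1 neuron genes had -0.22 (-0.17) and D2 neuron genes -0.06 (-0.03), and both share members with the striatal list. Chromatin modifiers had -0.07 (-0.18), clock genes -0.04 (-0.10), kinases and phosphatases of the MAPK pathway -0.04 (-0.09), glucocorticoid response genes 0.12 (0.08), interferon response genes 0.00 (0.02) and heat shock genes 0.10 (0.09). The 10 genes of the accumbens check list had -0.35 (-0.27). Pnoc, described above, was the 1 member of these lists with an unadjusted p under 0.05.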

How the data were processed

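The authors deposited a table named for FPKM with 23349 entries and 1 value per gene and mouse. Each of its 40 columns sums to 1000000, so the deposited values are in TPM, and how they were derived is not given in the sources used here. Cuffdiff 2.2.0, Cufflinks 2.2.0, limma, DESeq2, TopHat2 2.0.9, Bowtie2 2.1.0.0 and the build mm10 are named, with no role, per the submitters' processing notes. Libraries came from an AmpliSeq kit and shared a lane, per the labels' protocols, which give no read depth per library. TPM holds no read counts, so depth per library is unknown here and counting intervals are left out. Entries with a date as name (27, holding 0.0934% to 0.272% of a library) were left out. Coordinates come from GENCODE M21 on mm10, and promoter and microRNA sequences from RefSeq.

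From these values log2(TPM + 0.5) was computed, which understates changes of low genes. The test kept 14972 genes reaching 1 TPM in 4 or more of 19 libraries, of which 14383 were autosomal. Limma 3.58.1 in R 4.3.3, with trend and robust options, was fitted with a mean for each of 4 groups and 15 residual degrees of freedom. P-values were adjusted by the Benjamini-Hochberg method over all genes tested, with a threshold of 0.05. The ribosomal share was tested by exact permutation of treatments within each sex. Each library is 1 mouse. Tested on simulated data, the fit of the difference recovered 69 of 100 genes with a log2 difference of 2 and 100 of 100 with 4. It made 14 false calls among 14972 genes. No rate was obtained for data in which a whole library stands apart, as male cocaine 67 does here. The rates therefore describe the simulated data only and do not measure the power of the test in these mice.

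Named genes were any called (up to 30), the 10 of smallest p in each direction averaging at least 5 TPM, 16 fixed genes, and up to 3 members of smallest p from each of 40 lists. Gm1673, Mir341, Rpl12 and further list members were named after their values were seen. Of 724 list symbols 8 were found under another name and 2 were absent. The members and lists were chosen with earlier results of these data known. Alternatives changed the pseudocount, filter, scaling, libraries or model. Those that changed the libraries included a fit with the ovariectomized groups. Another added male cocaine 69 as a male cocaine library, despite its Xist level. Of all alternatives, 2, which joined another scaling with leaving out male cocaine 67, were chosen after seeing the data.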

Additional observations from a re-analysis of the deposited data

Results flagged for a closer look

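Within groups of 4 or 5 libraries, 19 of 156 checks found a library whose gap to its nearest neighbour took up most of the group's range. The threshold gives about 1 in 20 by chance for independent values of normal distribution. The checks share libraries and include values with zeros and genes named by their p. The count of 19 therefore does not show an excess over chance. Male cocaine 67 stood apart from its group in the ribosomal protein share (24.4%), the median log2 level (3.21), the median correlation with the other 18 libraries (0.917), Zic2 (1.90 TPM), Tmem38b (32.1 TPM) and Arc (16.9 TPM). Male saline 61 stood apart in that correlation (0.941) and in Drd1a (85.6 TPM), Pdyn (136 TPM), Drd2 (55.9 TPM) and Prl (2.03 TPM). Female saline 64 stood apart in ribosomal share (13.4%) and median log2 level (3.98). Male saline 73 had 17852 genes above 0 and stood apart in Prr7 (60.8 TPM) and Snora15 (14.5 TPM). Single values that stood apart were Esr1 in male saline 63 (3.68 TPM), Ppp1r1b in female saline 77 (1001 TPM) and Pnp2 in female cocaine 70 (2.84 TPM). Their part in the differences was not tested, apart from the values with a library left out.

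Among data outside the comparison, the library titled male cocaine 69 had Xist at 237 TPM, above all 9 male libraries used, with Ddx3y at 0.318 TPM where those males had 13.5 to 53.4.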

How the results depend on the processing

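No paired analysis was possible because the mouse numbers are unique to each animal and the groups share none. For the difference of the responses limma called 0 genes in all settings but 2: 22 with array weights, whose estimation did not converge (20 positive, among them A230065H16Rik, Camk2n2 and Tuba1b), and 2 with only animals 73 to 80 (Mir341 and Gm12238, 4 residual degrees of freedom). These settings called 31 and 1 genes in the female response and 249 and 1 in the male response. Leaving out each library gave 0 to 0 calls for the difference, 0 to 0 for females and 0 to 1 for males. The call in males was Gm1673 without male cocaine 67, and Snora65 without female cocaine 72 or 79. Snora65 and Mir341 passed the filter on low values only through cocaine libraries, so their calls are no support for a difference. The ribosomal share difference was 2.15 points with animals 73 to 80, -6.00 with animals 61 to 72, and ran from -3.55 to 2.35 as each library was left out, turning sign without male cocaine 67. The causes were not tested. The 20 genes ranked by p kept their sign in all 35 settings, which reuse all or a part of the libraries they were ranked in. Of the 15 fixed genes tested, up to 5 changed sign when a library was left out and up to 7 with animals 73 to 80 alone, and of 40 lists up to 10 and up to 14. The unadjusted count for the difference, 171, was 694 with the ribosomal share as covariate, 474 with centred libraries without male cocaine 67, 3565 with array weights and 328 without a filter. With 4 or 5 mice a group and unknown depth of each library, low transcripts and short RNAs are the least certain values.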

Other observations

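Hspa1b, an inducible chaperone of the heat shock response, was named as a member of the heat shock list with a small p for the difference. It stood at 0, 1.25, 0.758, 1.81 and 2.02 TPM in female saline and 2.30, 5.16, 7.56, 1.64 and 4.03 in female cocaine mice. In males it stood at 4.27, 2.09, 1.73, 3.88 and 1.77 TPM with saline and 2.85, 4.78, 3.95 and 2.34 with cocaine. The groups overlapped in both sexes, with 4 of 5 female cocaine libraries above all female saline libraries. Hspa1b was picked by its p in these same libraries, so this position of the female groups is no further support. The female response was 1.52 ± 0.42 on the log2 scale (SE; limma adjusted p = 1), the male response 0.33 ± 0.44, and their difference 1.19 ± 0.61 (limma adjusted p = 1). The near-identical copy Hspa1a may share reads with Hspa1b. Over the 16 tested heat shock genes the relative median was 0.10, and 0 had an unadjusted p under 0.05 for the difference.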
